A study of Mus musculus with 8 samples.

Results

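Basement membrane genes were examined in TGF-β-treated mouse cells labelled as renal fibroblasts, and as Suv39h1 knockdown or wild type. The set was chosen by gene symbol and holds 35 of the 22322 genes in the expression table: collagen IV chains, laminin chains, nidogens, heparan sulfate proteoglycans and other proteins of the sheet. All 35 symbols were found, and 34 passed the filter on low counts. The exception was Frem1, with 0 to 4 counts per library.

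A basement membrane is a thin sheet of matrix under epithelia and endothelia and around muscle and fat cells. Laminins, trimers of an α, a β and a γ chain, polymerise at the cell surface, and collagen IV forms a covalently crosslinked network beside them. Nidogens and perlecan join the networks. In the kidney, collagen IV made of α1 and α2 chains is widespread, whereas the α3, α4 and α5 chains form the network of the glomerular filter and of part of the tubule. Mutations in the genes of these latter chains cause Alport syndrome.

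The study compared 4 libraries of primary cells labelled renal fibroblasts and given a GFP adenovirus (Ad-GFP, genotype label WT) with 4 given a Cre recombinase adenovirus (Ad-Cre, genotype label suv39h1 knockdown). All 8 were stimulated for 48 hours with TGF-β (5 ng/ml), so there was no unstimulated group. Suv39h1 encodes a histone H3 lysine 9 methyltransferase. The labels give neither a floxed allele nor the age or number of mice, and do not say that replicates were separate cultures. The p-values therefore measure only the spread between these libraries, which may be technical.

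Library totals were 15879244 to 17930632 counts in Ad-GFP and 18006938 to 23940043 in Ad-Cre, so every Ad-Cre library was deeper. Suv39h1 was at 28.9, 27.8, 29.3 and 29.6 CPM (counts scaled to a common library total) in Ad-GFP and at 25.3, 22.7, 21.6 and 22.6 CPM in Ad-Cre. The groups did not overlap, and Suv39h1 fell to 79.6% (95% interval 73.5% to 86.2%; edgeR adjusted p = 3.29e-05). Exons of an antisense gene, Gm14820, which was not analysed here, overlap those of Suv39h1 over 767 bases. Of the 10 fibroblast markers, Col1a2 and Col1a1 had the highest levels per length, at 36.7 ± 2.04 and 35.1 ± 1.90 FPKM in Ad-GFP (SD, n = 4), and Lum had 0 to 12 counts in a library. Means of the 10 epithelial markers ranged from 58.9 FPKM for Pax8 to 773.5 FPKM for Krt8, a keratin of simple epithelia, all above the fibroblast markers. These levels do not bear out the label of renal fibroblasts for all cells, and the share of each cell type was not measured.

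The members moved in both directions, and most by less than 1.5-fold. Of the 34 tested, 12 rose and 17 fell in Ad-Cre (edgeR's quasi-likelihood test, adjusted p under 0.05 over all genes tested), against 19.8% higher and 20.5% lower among all 13337 genes tested. In either direction 29 of 34 members were called, and 40.3% of all genes. Their median log2 fold change was -0.08 against 0.00 for all genes, and their median absolute log2 fold change was 0.24 against 0.12. In 27 of the 34 the CPM values of the groups did not overlap (12 with Ad-Cre higher, 15 lower), which held for 35.4% of all genes. The largest rise was in Fras1, to 163% of Ad-GFP, and the largest fall in Nid2, to 55.3%.

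**Figure D1:**
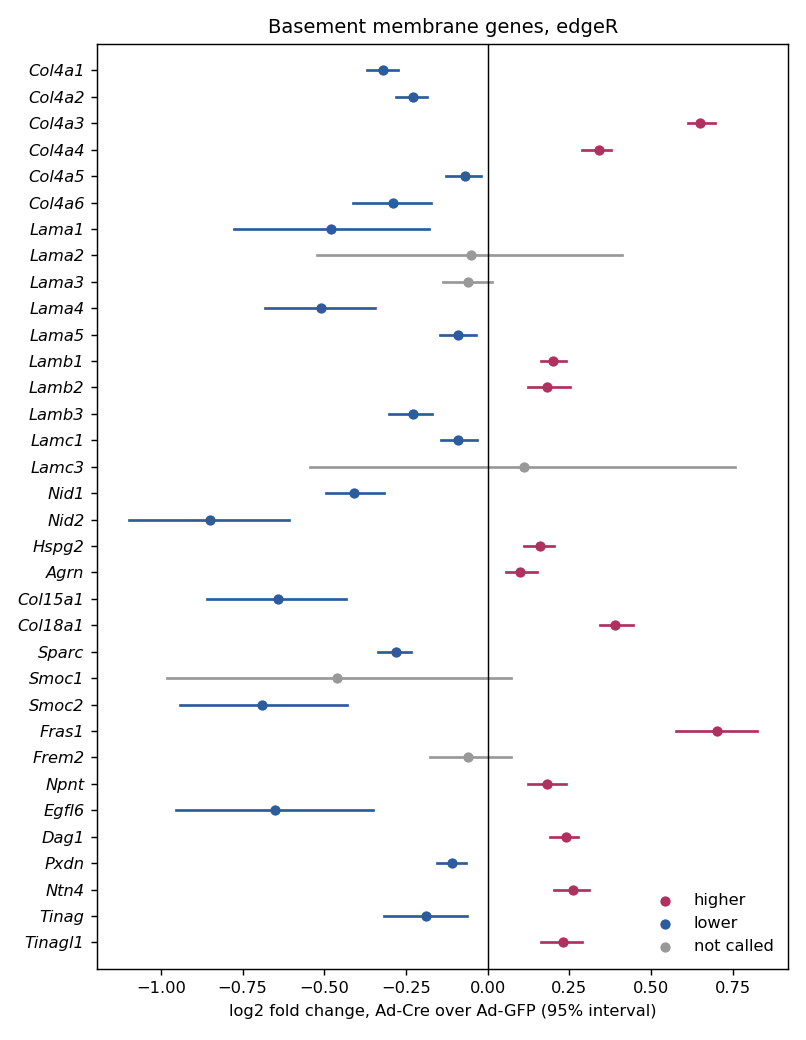
Log2 fold change of Ad-Cre over Ad-GFP (x axis) for the 34 tested basement membrane genes (rows), as the edgeR estimate (point) with its 95% interval (line), coloured by call. Col4a3, Col4a4, Col18a1 and Fras1 lie farthest to the right, and Nid2, Smoc2, Egfl6 and Col15a1 farthest to the left.

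The 6 collagen IV genes lie in 3 head-to-head pairs, and the pairs went different ways. The stretches at the starts are shown because each pair is transcribed outward from a common region (RefSeq promoter windows, GRCm38.p6, cut to lie between or upstream of the GENCODE starts). Capitals mark a GC box (GGGCGG) or a CCAAT box (CCAAT) on either strand. The Col4a1 and Col4a2 stretch, chr8:11312805-11312826 on the plus strand, is the 22 bases where the annotated first exons overlap. The Col4a3 and Col4a4 stretch, chr1:82586850-82586920 on the plus strand, is the 71 bases between the annotated starts. The Col4a5 stretch, chrX:141475169-141475384 on the plus strand, and the Col4a6 stretch, chrX:141474077-141474326 on the minus strand, lie upstream of starts that are 1308 bases apart.
Col4a1 and Col4a2: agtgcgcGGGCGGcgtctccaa
Col4a3 and Col4a4: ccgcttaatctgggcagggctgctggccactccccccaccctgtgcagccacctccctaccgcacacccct
Col4a5: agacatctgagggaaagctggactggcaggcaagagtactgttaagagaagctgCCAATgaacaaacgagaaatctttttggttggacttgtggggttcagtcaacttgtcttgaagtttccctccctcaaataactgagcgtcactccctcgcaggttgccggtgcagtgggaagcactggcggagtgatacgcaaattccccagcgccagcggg
Col4a6: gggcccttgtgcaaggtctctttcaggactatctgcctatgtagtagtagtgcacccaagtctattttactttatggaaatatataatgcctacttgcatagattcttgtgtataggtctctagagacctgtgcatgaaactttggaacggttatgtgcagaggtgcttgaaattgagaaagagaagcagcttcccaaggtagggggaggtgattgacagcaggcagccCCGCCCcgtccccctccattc

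The shared Col4a1 and Col4a2 stretch holds 1 GC box, the 71 bases between Col4a3 and Col4a4 hold neither motif, the Col4a5 stretch holds 1 CCAAT box and the Col4a6 stretch 1 GC box. A TATA box (TATAAA) and the short SMAD box (CAGAC) were also searched on both strands and are in none of the 4 stretches. The stretches differ in length and are parts of longer windows, so their motifs cannot be compared between the pairs. In full promoter windows of 300 bases, a GC box is in 35.6% of all 32817 windows, a CCAAT box in 37.4%, a TATA box in 13.6% and a SMAD box in 49.6%. The members have 32 windows, from 25 genes, of which 7 have 2 each. A GC box is in 19 of these windows (59.4%), a CCAAT box in 12 (37.5%), a TATA box in 0 and a SMAD box in 15 (46.9%). Member windows were 31.0% (Tinag) to 83.3% (Agrn) G or C, most of them above the median of 52.7% over all windows. The motif shares were not matched for this base content. In their full windows Col4a1, Col4a2 and Col4a5 hold both a GC box and a CCAAT box, and Col4a6 holds a GC box. Col4a2 and Col4a4 hold a SMAD box, and no window was used for Col4a3. These counts describe letters in a window, not sites of binding.

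Col4a1 (ENSMUSG00000031502; minus strand of chromosome 8, 11198423 to 11312826) encodes the α1 chain, present as a pair in each of the widespread trimers. Its level was 602, 624, 616 and 632 CPM in Ad-GFP and at 504, 491, 479 and 505 CPM in Ad-Cre. Every Ad-Cre library was below every Ad-GFP library. Col4a1 fell to 80.0% of Ad-GFP (95% interval 77.5% to 82.6%). Its log2 fold change was -0.32 with an SE of 0.022 (4 libraries per group; adjusted p = 8.37e-12).

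Its partner Col4a2 (plus strand, 11312805 to 11449287) was at 347, 344, 344 and 352 CPM in Ad-GFP and at 299, 297, 283 and 302 CPM in Ad-Cre, again without overlap. It fell to 85.2% (82.4% to 88.0%; adjusted p = 1.15e-08). Per length the Col4a1 transcript was the more abundant, at 135 ± 7.13 against 54.1 ± 0.625 FPKM in Ad-GFP (SD, n = 4). The Col4a1 to Col4a2 ratio of FPKM was 2.50 ± 0.14 in Ad-GFP and 2.42 ± 0.083 in Ad-Cre. That difference, -0.05 on the log2 scale, was within the spread between libraries (exact permutation test, two-sided, p = 0.4). With CPM in place of FPKM the difference was -0.09 and passed (exact permutation, adjusted p = 0.0343).

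Col4a3 and Col4a4 rose. Col4a3 (ENSMUSG00000079465; plus strand of chromosome 1, 82586921 to 82722059) encodes the α3 chain, the target of autoantibodies in Goodpasture disease. Its level was 554, 580.4, 567 and 572 CPM in Ad-GFP and at 894, 900.2, 895 and 883 CPM in Ad-Cre, a wide gap with little spread inside either group. Col4a3 rose to 157% of Ad-GFP (153% to 162%). Its log2 fold change was 0.65 with an SE of 0.020 (4 libraries per group; adjusted p = 8.75e-19), the smallest p of all members. Exons of C430014B12Rik, on the opposite strand and not analysed here, overlap those of Col4a3 over 563 bases. Antisense genes also overlap exons of Lama2 (631 bases), Lamc3 (382), Lama3 (197) and Fras1 (159). Others overlap exons of Nid1 (143 bases), Col4a2 (43) and Col15a1 (14). None of these antisense genes was analysed here. No source used here says whether the counting used strand, so reads of overlapping genes may not be told apart.

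Col4a4 (minus strand, 82448423 to 82586849), encoding the α4 chain, was at 348, 378, 365 and 365 CPM in Ad-GFP and at 461, 465, 457 and 454 CPM in Ad-Cre. It rose to 126% (122% to 130%; adjusted p = 1.28e-11). The neighbours rose by different amounts: the Col4a3 to Col4a4 ratio of FPKM went from 1.85 ± 0.026 to 2.30 ± 0.011 (SD, n = 4), a log2 difference of 0.31. All 4 Ad-Cre ratios lay above all Ad-GFP ratios (exact permutation p = 0.0286, the smallest that 4 against 4 libraries allow; adjusted p = 0.0381 over 12 ratios).

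Both genes of the X-linked pair fell, Col4a5 by little. Col4a5 (plus strand of X, 141475385 to 141689234), whose α5 chain joins α3 and α4 in the glomerular network, was at 183, 194, 189.6 and 191 CPM in Ad-GFP and at 182, 177, 182 and 179 CPM in Ad-Cre. It fell to 95% (91.6% to 98.5%; adjusted p = 0.0218). That call was lost when Ad-Cre replicate 2 was left out (adjusted p = 0.0508), and likewise for Ad-GFP replicate 2 (0.0795) and Ad-GFP replicate 4 (0.0533). Col4a6 (minus strand, 141165403 to 141474076), whose α6 chain pairs with α5 in Bowman's capsule and smooth muscle, was much lower in level. Its level was 24.5, 23.6, 26.4 and 26.2 CPM in Ad-GFP and 20.7, 20.7, 21.3 and 19.5 CPM in Ad-Cre, and fell to 81.6% (75.2% to 88.6%; adjusted p = 0.000206).

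**Figure D2:**
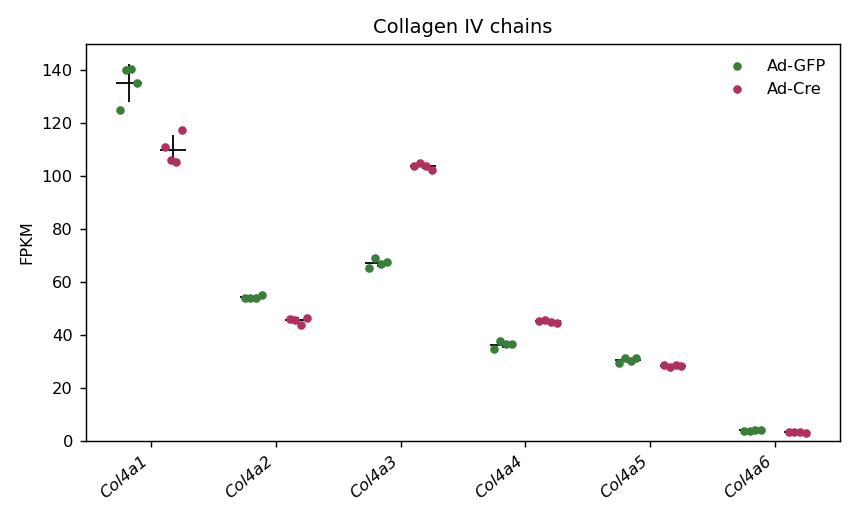
FPKM (y axis) of the 6 collagen IV genes in each library (points) of Ad-GFP (green) and Ad-Cre (red), with group mean and SD (black, n = 4). Col4a3 and Col4a4 sit higher in Ad-Cre, and Col4a1 and Col4a2 lower.

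The balance of collagen IV transcripts shifted toward α3 and α4. Per length, α3 and α4 transcripts together made up 32.0%, 31.8%, 31.1% and 31.5% of the collagen IV FPKM in Ad-GFP and 44.2%, 45.2%, 45.1% and 43.0% in Ad-Cre. The ratio of Col4a3 plus Col4a4 to Col4a1 plus Col4a2 went from 0.545 ± 0.011 to 0.959 ± 0.046 (SD, n = 4), 1.76-fold higher (log2 difference 0.81; exact permutation p = 0.0286, adjusted p = 0.0381). Col4a5 relative to Col4a1 plus Col4a2 went from 0.161 ± 0.0034 to 0.182 ± 0.0077 (exact permutation p = 0.0286, adjusted p = 0.0381; 0.0762 without Ad-GFP replicate 3). Col4a5 to Col4a6 went from 7.99 ± 0.52 to 9.22 ± 0.36 (exact permutation p = 0.0286, adjusted p = 0.0381), and no longer passed when any 1 Ad-Cre library was left out (adjusted p = 0.0623 to 0.0686). The sum over the 6 genes was 327 ± 10 FPKM in Ad-GFP and 336 ± 5.5 FPKM in Ad-Cre, with overlapping groups. These are transcript levels, and trimers were not measured. In bulk RNA, fewer cells of a type and less RNA per cell cannot be told apart.

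**Figure D3:**
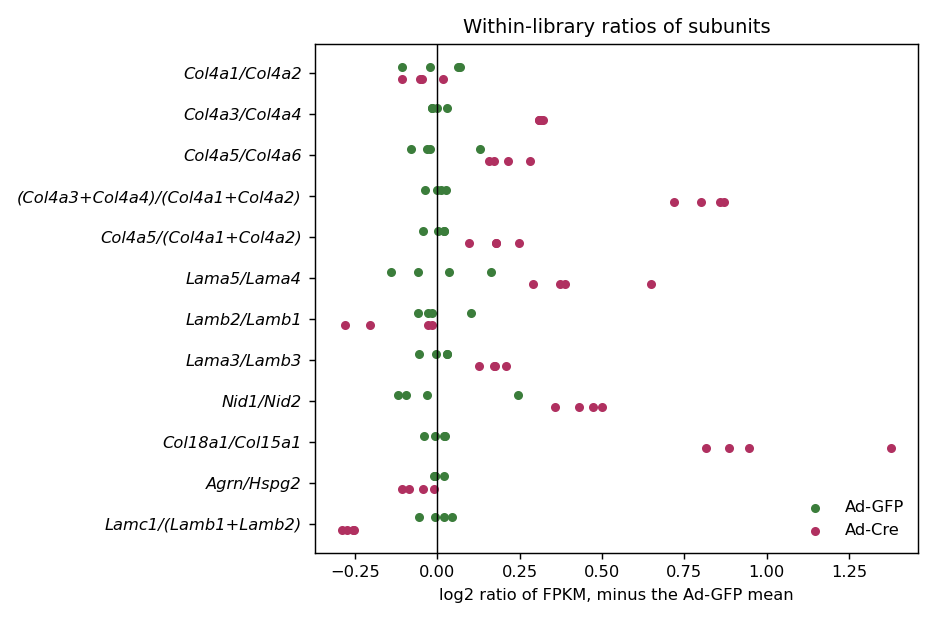
Within-library log2 ratios of FPKM (x axis, minus the Ad-GFP mean) for 12 pairs or sums of subunits (rows), 1 point per library, Ad-GFP in green and Ad-Cre in red. The collagen IV α3 and α4 to α1 and α2 ratio and the Col18a1 to Col15a1 ratio lie farthest from their Ad-GFP values.

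Among the 10 laminin genes, 2 rose, 5 fell and 3 were not called. The α chain carries the sites that bind integrins and dystroglycan, and Lama5, the α5 chain of mature kidney laminins, was the most abundant α chain at 53.0 ± 2.18 FPKM in Ad-GFP. Its level was 568, 594, 611 and 624 CPM in Ad-GFP and at 592, 549.6, 565 and 544 CPM in Ad-Cre, so the groups overlapped. Lama5 fell to 93.8% (90.3% to 97.5%; adjusted p = 0.00837), a call lost in limma on log2(FPKM + 1) without a filter (adjusted p = 0.0636). Lama4, the α4 chain typical of endothelial and mesenchymal sheets, was at 15.7, 15.5, 13.7 and 15.2 CPM in Ad-GFP and at 11.3, 11.3, 9.03 and 10.6 CPM in Ad-Cre. All Ad-Cre values were lower, and Lama4 fell to 70.1% (62.4% to 78.8%; adjusted p = 1.54e-05).

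Lama1, the α1 chain of embryonic basement membranes, was scarce: its levels were 3.55, 4.2, 4.55 and 4.19 CPM in Ad-GFP and 3.08, 3.19, 2.98 and 2.58 CPM in Ad-Cre, and fell to 71.8% (58.4% to 88.3%; adjusted p = 0.0103). Lama2, the α2 chain of muscle laminin, was at 3.08 ± 0.715 and 2.91 ± 1.29 CPM (SD, n = 4), with overlapping groups (96.3%, 69.7% to 133%; adjusted p = 0.872). Its highest value, 4.71 CPM, was in Ad-Cre replicate 2. Lama3, the α3 chain of epithelial anchoring laminin, was at 86.4, 92.3, 94.3 and 85.4 CPM in Ad-GFP and 82.1, 90.5, 85.8 and 84.5 CPM in Ad-Cre (95.8%, 90.9% to 101%; adjusted p = 0.185). The ratio of Lama5 to Lama4 FPKM went from 21.2 ± 1.9 to 28.6 ± 3.2 (exact permutation p = 0.0286, adjusted p = 0.0381; 0.0686 without Ad-Cre replicate 3).

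Among the β chains, Lamb1 rose and Lamb3 fell. Lamb1 (ENSMUSG00000002900; plus strand of chromosome 12, 31265234 to 31329644), the β1 chain of most laminins made by mesenchyme and developing epithelium, was the most abundant laminin transcript per length, at 138.6 ± 2.0 FPKM in Ad-GFP. Its level was 782, 790.3, 785 and 806 CPM in Ad-GFP and at 908, 897, 924 and 914 CPM in Ad-Cre, with no overlap, and rose to 115% (112% to 118%; adjusted p = 2.56e-09). Lamb3, the partner of the α3 chain, was at 111, 120.4, 121 and 116 CPM in Ad-GFP and 97.7, 102, 99.3 and 98.0 CPM in Ad-Cre. It fell to 85% (81.2% to 88.9%; adjusted p = 1.31e-06).

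Lamb2, the β2 chain of the glomerular filter and the neuromuscular junction, depended on the unit. By counts its level was 107, 106, 108 and 115 CPM in Ad-GFP and 130.3, 121, 122 and 123 CPM in Ad-Cre and rose to 114% (109% to 119%; adjusted p = 4.08e-05). By deposited FPKM it was at 28.5 ± 1.52 in Ad-GFP and 29.5 ± 2.39 in Ad-Cre (SD, n = 4), and limma on log2(FPKM + 1) did not call it (log2 fold change 0.05, adjusted p = 0.556). The Lamb2 to Lamb1 ratio of FPKM, 0.205 ± 0.010 and 0.188 ± 0.017, did not pass (exact permutation p = 0.2, adjusted p = 0.218).

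The γ chain Lamc1, shared by most laminins, was at 149, 147, 146 and 142 CPM in Ad-GFP and at 140.2, 136, 139.6 and 134 CPM in Ad-Cre. It fell slightly, to 94.2% (90.6% to 97.8%; adjusted p = 0.0116). Against Lamb1 plus Lamb2 its FPKM ratio went from 0.116 ± 0.0036 to 0.0959 ± 0.0012 (SD, n = 4; exact permutation p = 0.0286, adjusted p = 0.0381). Lamc3, the γ3 chain, had 7 to 22 counts per library and was not called (adjusted p = 0.817). The Lama3 to Lamb3 ratio of FPKM went from 0.558 ± 0.015 to 0.628 ± 0.015 (exact permutation p = 0.0286, adjusted p = 0.0381).

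**Figure D4:**
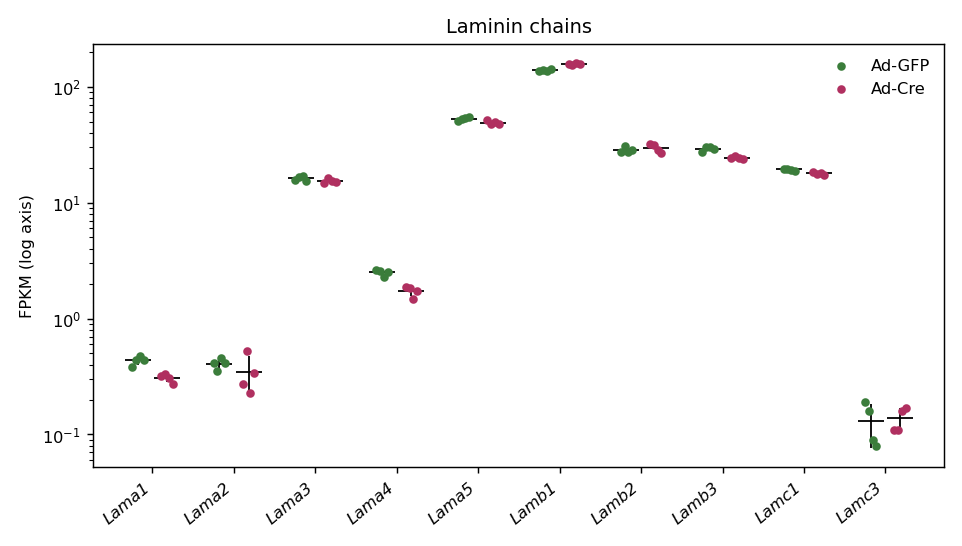
FPKM on a log axis (y) of the 10 laminin genes in each library (points) of Ad-GFP (green) and Ad-Cre (red), with group mean and SD (black, n = 4). Lamb1 is the highest and sits higher in Ad-Cre, Lama4 sits lower, and Lama1, Lama2 and Lamc3 lie below 1 FPKM.

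Both nidogens, which bridge laminin to collagen IV, fell. Nid1 (ENSMUSG00000005397; plus strand of chromosome 13, 13437551 to 13512269) was at 68.4, 64.4, 65.1 and 64.6 CPM in Ad-GFP and at 47.7, 51.8, 45.8 and 52.5 CPM in Ad-Cre. The groups were well apart, and Nid1 fell to 75.5% (71.0% to 80.3%; adjusted p = 3.14e-08). Nid2 was lower in level, at 7.45, 5.80, 7.56 and 7.37 CPM in Ad-GFP and 3.97, 3.91, 3.65 and 4.03 CPM in Ad-Cre, and fell to 55.3% (46.7% to 65.6%; adjusted p = 2.43e-06). Exons of Rtraf on the other strand overlap those of Nid2 over 437 bases, and Rtraf, with up to 2809 counts in a library, was at 110% of Ad-GFP (adjusted p = 0.00118). The ratio of Nid1 to Nid2 FPKM went from 7.54 ± 0.92 to 10.2 ± 0.43 (exact permutation p = 0.0286, adjusted p = 0.0381; 0.0623 to 0.0686 without any 1 Ad-Cre library).

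The heparan sulfate proteoglycans of the sheet rose a little and Col18a1 more. Agrn, encoding agrin, was the most abundant member per length, at 245.5 ± 8.23 FPKM in Ad-GFP. Its level was 1647, 1727, 1731 and 1782 CPM in Ad-GFP and 1917, 1804, 1874 and 1796 CPM in Ad-Cre, just without overlap. Agrn rose to 107% (104% to 111%; adjusted p = 0.000745), but limma on log2(FPKM + 1) did not call it (adjusted p = 0.0655). Hspg2, encoding perlecan, was at 837, 881, 863 and 906 CPM in Ad-GFP and 994, 968, 953 and 979 CPM in Ad-Cre and rose to 112% (108% to 115%; adjusted p = 1.96e-06). The Agrn to Hspg2 ratio of FPKM, 3.97 ± 0.040 and 3.80 ± 0.12, did not pass (exact permutation p = 0.0571, adjusted p = 0.0686; 0.049 without Ad-Cre replicate 3).

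The related collagens XVIII and XV, which carry glycosaminoglycan chains and release endostatin and restin from their C-terminal ends, moved in opposite directions. Col18a1 (ENSMUSG00000001435; minus strand of chromosome 10, 77052178 to 77166548) was at 462, 469.7, 477 and 466 CPM in Ad-GFP and 632, 593, 604 and 633 CPM in Ad-Cre. Every Ad-Cre value was higher, and it rose to 131% (127% to 136%). Its log2 fold change was 0.39 with an SE of 0.023 (4 libraries per group; adjusted p = 3.1e-13). Col15a1 was at 11.8, 11.6, 12.4 and 11.7 CPM in Ad-GFP and at 7.77, 7.65, 5.81 and 9.06 CPM in Ad-Cre, and fell to 64.0% (55.2% to 74.1%; adjusted p = 1.54e-05). Their FPKM ratio went from 42.0 ± 0.87 to 85.2 ± 16 (SD, n = 4), 2.01-fold higher (exact permutation p = 0.0286, adjusted p = 0.0381).

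The matricellular proteins bind collagen and calcium without building the network. Sparc, a collagen chaperone-like glycoprotein and the most abundant of them at 208 ± 4.89 FPKM in Ad-GFP, was at 448, 433, 417 and 438 CPM in Ad-GFP and 348, 363, 348 and 365 CPM in Ad-Cre. It fell to 82.1% (79.3% to 85%; adjusted p = 5.35e-10). Smoc2 was at 5.73, 5.80, 5.67 and 5.87 CPM in Ad-GFP and 2.96, 3.87, 3.60 and 3.80 CPM in Ad-Cre and fell to 62.2% (52.1% to 74.2%; adjusted p = 7.6e-05). Its paralog Smoc1, at 1.29 ± 0.172 and 0.936 ± 0.234 CPM (SD, n = 4), was not called (72.8%, 50.7% to 105%; adjusted p = 0.157).

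The Fraser complex anchors embryonic epithelia, and its loss causes renal agenesis. Fras1 (ENSMUSG00000034687; plus strand of chromosome 5, 96373955 to 96784728) was at 28.1, 34.5, 29.9 and 27.0 CPM in Ad-GFP and 47.6, 51.2, 50.6 and 45.3 CPM in Ad-Cre. The lowest Ad-Cre library was well above the highest Ad-GFP library, and Fras1 rose to 163% (149% to 177%). Its log2 fold change was 0.70 with an SE of 0.059 (4 libraries per group; adjusted p = 4.63e-10). Its complex partner Frem2 was at 28.8, 32.0, 32.9 and 29.7 CPM in Ad-GFP and 30.3, 28.5, 27.3 and 32.7 CPM in Ad-Cre and was not called (96.1%, 88.4% to 105%; adjusted p = 0.468). The third partner, Frem1, was at or near 0 in all libraries. Exons of an antisense gene, Gm42604, which was not analysed here, overlap those of Fras1 over 159 bases.

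Of the ligands that basement membranes present to integrins, nephronectin, which acts through integrin α8 in kidney development, had the higher level per length. Its gene Npnt was at 188, 185, 196 and 198 CPM in Ad-GFP and 217, 211, 217 and 225 CPM in Ad-Cre and rose to 114% (109% to 118%; adjusted p = 5.39e-06). Egfl6, a related EGF-repeat protein, was at 4.41, 5.86, 3.96 and 4.81 CPM in Ad-GFP and 3.19, 2.69, 3.07 and 3.21 CPM in Ad-Cre and fell to 63.6% (51.6% to 78.4%; adjusted p = 0.000857). Npnt and Egfl6 are similar in domain structure and went in opposite directions. Ntn4, a netrin that binds laminin γ chains and interrupts laminin polymers, was at 142, 141, 132 and 139 CPM in Ad-GFP and 166, 161, 166 and 169 CPM in Ad-Cre and rose to 119% (115% to 124%; adjusted p = 4.87e-08).

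Dag1 encodes dystroglycan, the non-integrin laminin receptor. Its level was 415, 424, 417 and 433 CPM in Ad-GFP and 494, 502, 498 and 496 CPM in Ad-Cre, with the Ad-Cre values close together and all higher. Dag1 rose to 118% (114% to 121%; adjusted p = 8.92e-10). Pxdn, encoding peroxidasin, which forms the sulfilimine crosslinks of collagen IV, was at 481, 493, 481 and 491 CPM in Ad-GFP and 462, 438, 445 and 458 CPM in Ad-Cre and fell to 92.6% (89.8% to 95.5%; adjusted p = 0.000208).

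The tubulointerstitial nephritis antigen genes complete the set. Tinag, an antigen of tubular basement membrane, was at 22.5, 24.7, 23.2 and 21.3 CPM in Ad-GFP and 21.4, 20.7, 19.9 and 18.6 CPM in Ad-Cre, with slight overlap. It fell to 87.6% (80.2% to 95.7%; adjusted p = 0.0158), a call lost when Ad-Cre replicate 4 (adjusted p = 0.0662) or Ad-GFP replicate 2 (0.0767) was left out. Its homolog Tinagl1 was at 149.8, 145, 152 and 149.5 CPM in Ad-GFP and 178, 167, 179.6 and 173 CPM in Ad-Cre, without overlap, and rose to 117% (112% to 122%; adjusted p = 3.38e-07).

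Members with few counts fell or were not called. Of the 9 tested members with a mean under 20 CPM, 0 rose and 6 fell (Lama1, Lama4, Nid2, Col15a1, Smoc2 and Egfl6), and of the 25 at or above it, 12 rose and 11 fell. Over all genes tested, 9.88% of those under 20 CPM rose and 20.8% fell, and 27.3% of those at or above it rose and 20.2% fell. The level of 20 CPM was chosen after the values were seen.

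**Figure D5:**
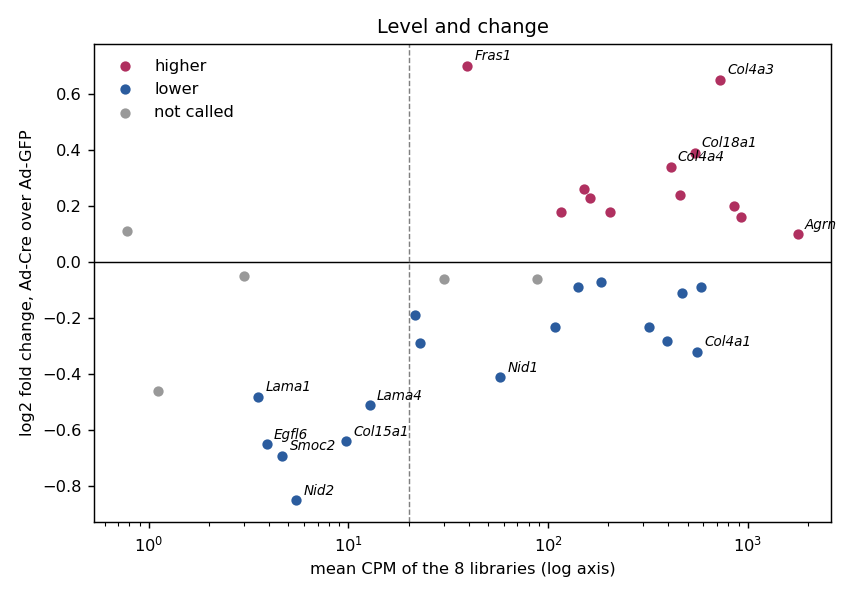
Log2 fold change of Ad-Cre over Ad-GFP (y axis) against mean CPM of the 8 libraries on a log axis (x) for the 34 tested members, coloured by call, with a dashed line at 20 CPM. The points left of the line hold 6 falls and 0 rises.

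Genes that make, bind or cut these proteins are given beside the shares over all genes, of which 40.3% were called, 19.8% higher and 20.5% lower. Among 19 genes that fold and crosslink collagen IV, 4 rose and 4 fell (42.1% called, near the share over all genes), with a median of 0.03 on the log2 scale. Serpinh1, the collagen chaperone HSP47, fell to 87.8% (adjusted p = 4.02e-08). Loxl2, a lysyl oxidase that crosslinks collagen IV, fell to 86.5% (adjusted p = 1.72e-06), and P3h2, a prolyl 3-hydroxylase of collagen IV, rose to 130% (adjusted p = 0.000216).

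Of 24 tested laminin and collagen receptors, 6 rose and 6 fell (50% called; median 0.00). The syndecan gene Sdc4 rose to 128% (adjusted p = 1.71e-11), and Itga2, the integrin α2 chain of a collagen receptor, fell to 70.8% (adjusted p = 1.23e-09). Dmd, encoding dystrophin, which links dystroglycan to actin, fell to 73.1% (adjusted p = 5.4e-08). Itgb1, the β1 chain common to these integrins, was at 3618 ± 58.8 CPM in Ad-GFP (SD, n = 4) and fell to 96.9% (adjusted p = 0.0251). That call was lost without Ad-Cre replicate 1 (adjusted p = 0.0678) or 3 (0.0729), and without Ad-GFP replicate 1 (0.0525) or 2 (0.0858).

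Of 18 genes that glycosylate dystroglycan for laminin binding, 6 rose and 1 fell (38.9% called, near the share over all genes; median 0.10). Pomk, a kinase of the glycan's core, rose to 123% (adjusted p = 6.66e-05) and Pomgnt2, a glycosyltransferase, to 127% (adjusted p = 0.000703).

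Of 23 tested proteases of basement membrane and their inhibitors, 6 rose and 9 fell (65.2% called; median -0.04). Mmp7 (matrilysin) fell to 47.3% (adjusted p = 4.8e-10) and Adamts4 to 57.2% (adjusted p = 9.24e-10), whereas Plau, the urokinase plasminogen activator, rose to 121% (adjusted p = 1.35e-11). Of 18 other tested matrix genes associated with the sheet, 5 rose and 6 fell (61.1% called; median -0.01). Fbln2, a fibulin that binds nidogen, rose to 131% (adjusted p = 9.28e-14). Col7a1, the anchoring fibril collagen, fell to 74.2% (adjusted p = 2.69e-11), and Slit2, a guidance ligand, to 62.3% (adjusted p = 9.26e-15).

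Markers of cell types that make these proteins also differed between the groups. Their counts, here and in the next paragraph, stand beside 40.3% of all genes tested called, 19.8% higher and 20.5% lower. The lists are short, and no set test was run. All 12 endothelial markers fell, with a summed level of 161.7 to 168.1 CPM in Ad-GFP and 80.3 to 92.9 CPM in Ad-Cre. Cdh5 (VE-cadherin) fell to 48.3% and Pecam1 to 49.7%. Endothelial cells are a source of basement membrane proteins, and their part in the changes of the members, in either direction, was not tested. Of 9 tested fibroblast markers 5 fell and 0 rose, with summed levels of 525.8 to 568.5 CPM and 345.1 to 401.9 CPM. Col1a1 fell to 63.7%, Col1a2 to 66.9% and Thy1 to 21.5%. Of 6 mural markers 4 fell and 0 rose (summed 265.1 to 278.8 CPM and 231.7 to 244.5 CPM). Mcam fell to 91.7%, a call that limma on log2(FPKM + 1) did not make (adjusted p = 0.0831), and Notch3 was at 105% (adjusted p = 0.224). Of 6 macrophage markers 4 fell and 0 rose (summed 198.7 to 226.8 CPM and 182.5 to 195.9 CPM), with Lyz2 at 89.5% and Csf1r at 82.5%.

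Podocytes and tubule cells are the usual sources of the α3, α4 and α5 chains. Of 7 tested podocyte markers 1 rose and 3 fell, with summed levels of 181.6 to 194.7 CPM in Ad-GFP and 188.9 to 193.6 CPM in Ad-Cre. Podxl fell to 82.9% and Synpo rose to 152%, while Nphs1 (nephrin) had 0 to 5 counts per library. Of 10 epithelial markers 3 rose and 5 fell (summed 5727 to 5942 CPM and 5276 to 5353 CPM). Epcam rose to 118%, Cdh16 (kidney cadherin) to 123% and Pax8 to 112%. Krt8 fell to 77.6%, Krt19 to 68.5%, Krt18 to 83.6% and Krt7 to 95.1%. Cldn4 was at 96.4% (adjusted p = 0.0465), a call lost without any of 5 libraries in turn. Among the 4 proximal tubule markers tested, 3 rose and 0 fell (summed 88.5 to 95.4 CPM and 123 to 137 CPM). Aqp1, a water channel, rose to 496%, from 4.52 ± 0.859 to 22.4 ± 3.03 CPM (SD, n = 4). Ggt1 rose to 150% and Cubn to 139%, Lrp2 was at 92.7% (adjusted p = 0.112; 0.0286 without Ad-GFP replicate 2), and Slc34a1 and Slc5a2 had 0 to 2 counts per library. Of 5 tested distal nephron markers 1 rose and 2 fell (summed 42.6 to 49.3 CPM and 48.8 to 55.1 CPM). Slc12a3 rose to 153%, whereas Calb1 fell to 29.1% and Slc12a1 to 37.2%. Gata3 was at 105% (adjusted p = 0.328), and Aqp2 had 0 counts in all 8 libraries. The part of epithelial cells in the rise of Col4a3 and Col4a4 was not tested.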

How the data were processed

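The authors deposited 1 table with whole-number read counts per Ensembl gene and FPKM values (fragments scaled by transcript length and depth) for each of 8 libraries, per the file headers. GRCm38 and mm10 are the builds named in the submitters' processing notes. No source used here gives the aligner, counter, strand setting or annotation release. Coordinates are GENCODE M21 on GRCm38, and promoter windows are RefSeq, GRCm38.p6 (25 of 35 members had one used here).

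Deposited counts were analysed with edgeR 4.0.16 in R 4.3.3: filterByExpr (13337 genes), TMM scaling, the quasi-likelihood F-test of Ad-Cre against Ad-GFP, two-sided, and Benjamini-Hochberg adjustment over all genes tested, with a threshold of 0.05. "Rose" and "fell" mean past it. Each SE was taken as the size of the log2 fold change divided by the root of its F statistic. CPM is relative to TMM-scaled library totals. Levels of different genes are compared by FPKM. Ratios of FPKM within a library were tested by exact permutation over the 70 splits, adjusted over 12 ratios. No covariate or block was used, since the labels state no pairing. Members and lists were chosen with earlier results of these data known.

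All tested members are named. From each of 5 related lists the text takes the 3 called genes of smallest p and the gene of highest mean CPM, and from each of 8 marker lists the 2 genes of highest mean CPM and those with under 1 count per library on average. Genes outside this rule (Lum, Thy1, Nphs1, Epcam, Cdh16, Pax8, Krt7, Krt18, Krt19, Aqp1, Cubn, Calb1, Slc12a1 and Rtraf) were chosen after their values were seen. Some genes that the rule names are not reported here. The related symbols Col4a3bp, Ispd and Tmem5 matched no row. Alternatives were other scaling factors, filters, DESeq2 1.42.0, limma-voom and limma 3.58.1 on log2(FPKM + 1) or log2(FPKM + 0.1), thinning to 15879244 counts, a replicate block and leaving out each library. Data were simulated for this comparison with 200 of 13337 genes changed and the same dispersion for every gene. There the fit recovered 79.1% of genes changed 1.25-fold, 83.6% at 1.5-fold and 97.0% at 2-fold, and 4.42% of its calls were false. In the real data 40.3% of genes were called and dispersion can differ between genes, so these rates need not carry over.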

Additional observations from a re-analysis of the deposited data

Results flagged for a closer look

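Within the groups of 4 libraries, 92 sets of values were searched for a library far from the other 3 (the gap to the nearest as a share of the whole range, against Dixon's 95% critical value), which chance gives in about 1 of 20 groups. In 3 sets such a library was found. Nid2 was at 5.80 CPM in Ad-GFP replicate 2 and at 7.37 to 7.56 CPM in the other Ad-GFP libraries (gap share 0.8936); without that library its log2 fold change was -0.94. Smoc1 was at 0.589 CPM in Ad-Cre replicate 4 and at 1.01 to 1.09 CPM in the others (gap share 0.8292), in a gene with 13 to 26 counts per library. The Agrn to Hspg2 ratio of FPKM was 4.02 in Ad-GFP replicate 3 and 3.94 to 3.95 in the others (gap share 0.862).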

How the results depend on the processing

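Over 19 alternatives, the count of called members ranged from 26 to 29, and every call was of a gene called in the fit reported here, in the same direction. Over all genes, the fit called 5370 (2641 higher, 2729 lower). Limma on log2(FPKM + 1) called 3530 (1400 higher, 39.7% of its calls against 49.2%), limma on log2(FPKM + 0.1) called 3520 (1393 higher), and log2(FPKM + 1) without a filter gave 1266 higher. These differ in unit, test and filter, and the cause was not tested. Calls of Col4a5, Lama5, Lamb2, Agrn and Tinag were each lost in at least 1 alternative, as given above. The fall of Nid2 ranged from -0.94 to -0.45 and the rise of Fras1 from 0.48 to 0.78 on the log2 scale, with the smallest sizes in limma on log2(FPKM + 1). Upper-quartile factors turned the split of calls over all genes to 2164 higher and 3089 lower, and 29 members stayed called. With CPM in place of FPKM, 10 of 12 ratios passed in place of 9, Col4a1 to Col4a2 being the added one, and the Lamb2 to Lamb1 log2 difference was -0.02 in place of -0.13. Leaving out 1 library left 7 to 9 ratios past the threshold. The replicate numbers pair nothing in the labels. Deviations of same-numbered libraries from their group means had correlations near 0 (0.0831, 0.104, 0.0076 and -0.0115). Those of differently numbered libraries ranged from -0.0885 to 0.0666. With the replicate block, edgeR called 5390 genes and 29 members. For the ratios, an exact sign-flip test over the 4 same-numbered pairs cannot go below p = 0.125 and so says nothing of stability.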
